A study of Mus musculus with 8 samples.

Results

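Prostaglandins and leukotrienes are lipid mediators that cells make from arachidonic acid. The 10 genes described here encode some, not all, of the steps of their synthesis and reception: Pla2g4a, Ptgs1, Ptgs2, Ptges, Ptgis, Ptgds, Ptger4, Alox5, Alox5ap and Ltb4r1. The genes were chosen by name, with earlier results of these data known. Each was read from the brightest array probe that the manufacturer named by a RefSeq transcript of the gene and that had a signal well above background on 4 or more of the 8 arrays. All 10 genes had such a probe, out of 15156 genes with a retained probe and 20145 genes with a named probe on the array.

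Cytosolic phospholipase A2 (Pla2g4a) frees arachidonic acid from membranes. The cyclooxygenases (Ptgs1, present in most tissues, and Ptgs2, inducible by cytokines and injury) turn it into prostaglandin H2, from which terminal synthases make prostaglandin E2, prostacyclin or prostaglandin D2. In leukocytes, 5-lipoxygenase (Alox5) with its partner protein FLAP (Alox5ap) instead makes leukotriene A4, the precursor of leukotriene B4, a chemoattractant of neutrophils that acts through Ltb4r1.

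Ventricles of male mice of the C57BL\6 background were taken 24 hours after surgery. In MI mice (n = 4) the anterior interventricular artery had been ligated, and sham-operated mice (n = 4) had undergone the operation with no ligation. The occlusion was permanent, and the RNA of each mouse came from ventricular tissue that was not divided into infarcted and remote parts. The labels do not state the age of the mice. Each mouse had 1 Agilent array of the SurePrint G3 8x60K type with RNA labeled in 1 colour. The share of spots well above background ranged from 58.6% to 66.4%. After normalization with the spike-in RNA, the median log2 level of the retained probes still varied between arrays, from 0.33 below to 0.28 above their mean, and was lowest in MI mouse 2 and sham mouse 2. The cardiomyocyte markers were bright in both groups, and none of 8 passed the test (median log2 fold change -0.06, lowest -0.56 for Pln). Levels are log2 normalized intensities and are compared between mice for the same probe only, since the brightness of different probes cannot be compared. Precision is limited by the number of arrays. The limma p-values rest on the spread between mice, with each probe's variance drawn towards that of the other retained probes.

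The promoter sequences of Ptgs2 and Ltb4r1, which had the largest changes of the 10 genes, are shown with that of Ptgs1, the cyclooxygenase whose level differed least. Promoter windows in the RefSeq table (GRCm38.p6) could be matched for 8 of the 10 genes, in 9 windows; Ptgis and Alox5ap were not matched. The lines give the 250 bases before the annotated start, 5′ to 3′ on the plus strand, on which each of these genes lies: chr1:150099781-150100030 for Ptgs2, chr14:55765712-55765961 for Ltb4r1 and chr2:36230176-36230425 for Ptgs1. Capitals mark matches on either strand to the letters of a C/EBP motif (TTNNGNAA), a PU.1 motif (GAGGAA) or a GC box (GGGCGG).
Ptgs2: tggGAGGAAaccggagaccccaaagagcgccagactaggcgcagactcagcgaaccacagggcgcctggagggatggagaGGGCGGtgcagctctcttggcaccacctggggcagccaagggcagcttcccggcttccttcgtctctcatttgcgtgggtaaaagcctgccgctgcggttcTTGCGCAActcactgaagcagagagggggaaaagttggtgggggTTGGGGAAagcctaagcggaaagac
Ltb4r1: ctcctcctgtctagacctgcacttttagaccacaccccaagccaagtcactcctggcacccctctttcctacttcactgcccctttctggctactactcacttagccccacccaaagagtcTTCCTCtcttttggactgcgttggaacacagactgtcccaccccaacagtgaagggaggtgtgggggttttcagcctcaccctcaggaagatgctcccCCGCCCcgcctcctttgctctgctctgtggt
Ptgs1: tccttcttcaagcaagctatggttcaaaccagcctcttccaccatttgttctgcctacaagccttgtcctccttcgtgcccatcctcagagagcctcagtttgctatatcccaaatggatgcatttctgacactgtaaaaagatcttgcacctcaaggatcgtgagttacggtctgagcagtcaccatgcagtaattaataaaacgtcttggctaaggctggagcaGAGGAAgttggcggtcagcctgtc

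In the Ptgs2 window, C/EBP letters began 69 and 25 bases before the start, the first of these a match on both strands, and the PU.1 letters and GC box began 247 and 170 bases before it. The Ltb4r1 window held PU.1 letters and a GC box, both on the minus strand, and the Ptgs1 window held PU.1 letters only. These motifs were common: of all 32851 promoter windows, 36.8% held C/EBP letters, 23.3% PU.1 letters and 32.7% a GC box. Over the 8 genes, 4 had C/EBP letters, 5 PU.1 letters and 5 a GC box. The letters of an AP-1 motif (TGANTCA) stood before Ptgds and in 6.75% of all windows, and a TATA box (TATAAA) stood before Pla2g4a and in 12.4%. The letters of a cAMP response element (TGACGT, 6.47% of windows), an NF-kB core (GGANTTTCC, 1.07%) and an E-box (CACGTG, 6.02%) were not in the windows of the 8 genes. A match is a description of the letters and not a site of binding.

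In MI mice, 3 of the 10 genes rose and none fell: Ptgs2 by 6.38-fold, Ltb4r1 by 5.66-fold and Alox5ap by 2.22-fold. A call required a fold change over 2 and a limma p under 0.05 after Benjamini-Hochberg adjustment over 34038 probes. Over all retained probes, 3.07% were called higher and 0.405% lower. At an adjusted p under 0.05 with any fold, the count was again 3 higher and none lower, beside 6.3% and 1.31% of all probes. In the same 3 genes each MI mouse lay above each sham-operated mouse, as in 8.46% of all probes, and in none did each lie below, as in 2.7%. The other 7 genes had overlapping groups. The median log2 fold change of the 10 genes was 0.37, beside 0.12 for all retained probes. Over the brightest retained probe of each of 15156 genes, the median was 0.075. A gene's change in whole ventricle does not tell apart more cells of a type and more RNA per cell. Of all calls, 88.3% were higher, but 72.2% when each array was scaled to its 75th percentile and 69.2% after quantile normalization, which moved the median of all probes to -0.02 and -0.03.

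**Figure D1:**
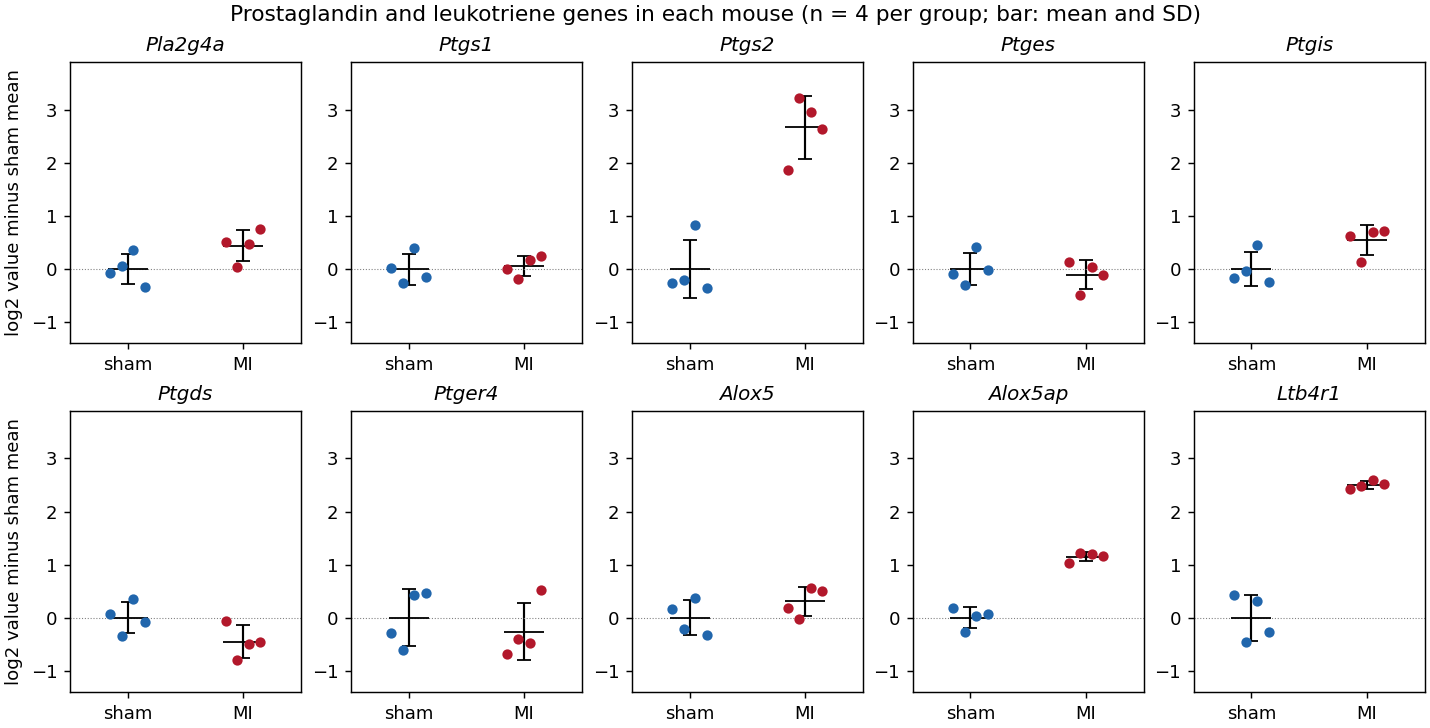
Level of each of the 10 genes in each mouse, as the log2 normalized intensity minus the gene's mean in sham-operated mice (vertical axis), for sham-operated (blue) and MI mice (red). Points are mice, and the horizontal lines and bars are the mean and SD (n = 4 per group). The groups lie apart for Ptgs2, Alox5ap and Ltb4r1 and overlap for the other 7 genes.

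The first step of the pathway showed no call. The log2 level of Pla2g4a was 8.69, 8.21, 8.65 and 8.92 in MI mice 1 to 4 and 8.09, 8.24, 8.53 and 7.84 in sham-operated mice 1 to 4. MI mouse 2 lay among the sham-operated mice, while the other MI mice lay above them. The difference was 0.44 on the log2 scale (SE 0.22, adjusted p = 0.263 in limma, exact permutation p = 0.0857).

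Of the cyclooxygenases, Ptgs2 rose and Ptgs1 gave no call. Ptgs2 had log2 levels of 7.74, 9.11, 8.84 and 8.51 in MI mice and 5.61, 5.67, 6.70 and 5.52 in sham-operated mice. The groups did not overlap, and sham mouse 3 stood above the other sham-operated mice. The means of MI and sham-operated mice were 8.55 ± 0.59 and 5.88 ± 0.55 (SD, n = 4 each). The log2 difference was 2.67 (95% interval 2.10 to 3.24, SE 0.28, limma adjusted p = 1.32e-07, exact permutation p = 0.0286, the smallest that 4 against 4 mice allow). Before normalization, the processed intensity of the probe lay at 191 to 677 in the MI group and at 30.1 to 75.2 in the sham group.

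Ptgs2 was printed on each array in 10 spots, and all 10 were well above background on every array. The SD over the spots of an array was between 0.06 and 0.18 on the log2 scale. In sham mouse 3 the lowest spot (6.52) lay above the highest spot of every other sham-operated mouse (5.85), and in MI mouse 1 the highest spot (7.82) lay below the lowest of the other MI mice (8.33). Without sham mouse 3 the log2 difference of Ptgs2 was 2.95. With a vsn model fitted anew to the spike-in spots, whose constants (166 to 256) exceeded the signal of the probe in each sham-operated mouse, it was 1.17 (adjusted p = 0.00975, the highest over 20 alternatives), and the call held.

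Ptgs1 had log2 levels of 10.64, 10.46, 10.81 and 10.89 in MI mice and 10.66, 10.37, 11.04 and 10.49 in sham-operated mice. The MI mice lay within the range of the sham-operated mice. The log2 difference was 0.06, with a 95% interval from -0.38 to 0.50, so that a change of over 1.41-fold in either direction lies outside it (limma adjusted p = 0.916), and its sign turned under 75th percentile scaling (-0.067) and quantile normalization (-0.036).

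The terminal synthases gave no call. The brightest Ptges probe, for the inducible prostaglandin E2 synthase, had log2 levels of 14.35, 13.74, 14.26 and 14.10 in MI mice and 14.12, 13.92, 14.63 and 14.20 in sham-operated mice. The groups overlapped, with a log2 difference of -0.11 (95% interval -0.55 to 0.34, limma adjusted p = 0.845). A dimmer Ptges probe gave a difference in the opposite direction, with means of 6.04 ± 0.42 in MI and 5.56 ± 0.30 in sham-operated mice (SD, n = 4; log2 difference 0.49, SE 0.23, limma adjusted p = 0.238). The direction of Ptges is therefore not settled on these arrays.

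Ptgis, the prostacyclin synthase of vessel walls, had log2 levels of 12.64, 12.14, 12.71 and 12.72 in MI mice and 11.83, 11.97, 12.46 and 11.77 in sham-operated mice. The 3 other MI mice lay above all sham-operated mice, and MI mouse 2 lay below sham mouse 3. The log2 difference was 0.54 (SE 0.22, limma adjusted p = 0.148, exact permutation p = 0.0571). It passed the adjusted threshold without MI mouse 2 (log2 difference 0.68, adjusted p = 0.0455) and after quantile normalization (0.48, adjusted p = 0.0498), and over all alternatives the adjusted p reached 0.476.

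Ptgds, the lipocalin-type prostaglandin D2 synthase, had log2 levels of 17.40, 16.65, 16.96 and 17.01 in MI mice and 17.53, 17.11, 17.80 and 17.38 in sham-operated mice. MI mouse 1 lay among the sham-operated mice and the other 3 lay below them. The log2 difference was -0.45 (SE 0.22, limma adjusted p = 0.253, exact permutation p = 0.0857). After scaling to the 75th percentile it was -0.57 with an adjusted p of 0.0156, and after quantile normalization -0.45 with an adjusted p of 0.0494, within a range up to 0.614 over all alternatives. Neither alternative reached a 2-fold change.

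Ptger4, the EP4 receptor of prostaglandin E2, had log2 levels of 6.93, 7.22, 7.14 and 8.14 in MI mice and 7.34, 7.01, 8.06 and 8.08 in sham-operated mice. Both groups spread by over 1 unit, and they overlapped. The log2 difference was -0.26 (SE 0.27, 95% interval -0.81 to 0.29, limma adjusted p = 0.647).

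**Figure D2:**
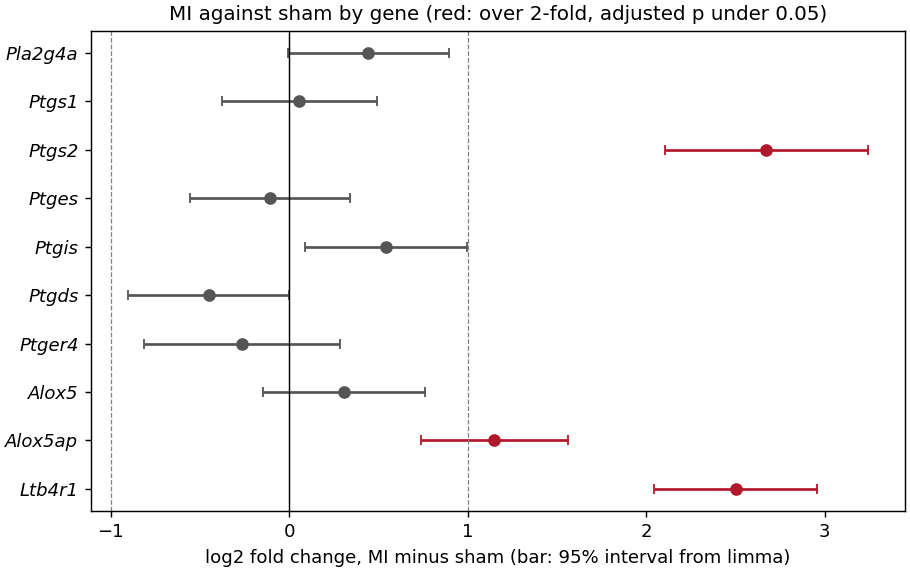
Log2 fold change of each of the 10 genes, MI minus sham (horizontal axis), with the 95% interval from limma (n = 4 mice per group). Red points are called (over 2-fold and adjusted p under 0.05), grey points are not, and dashed lines mark 2-fold. The intervals of Ptgs2 and Ltb4r1 lie wholly beyond 2-fold, and that of Alox5ap starts at 0.74.

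Of the leukotriene genes among the 10, the partner protein and the receptor rose, and no call was made for the lipoxygenase. Alox5 had log2 levels of 10.48, 10.28, 10.87 and 10.82 in MI mice and 10.48, 10.09, 10.68 and 9.98 in sham-operated mice. The groups overlapped, and the log2 difference was 0.31 (SE 0.22, 95% interval -0.15 to 0.76, limma adjusted p = 0.486).

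Alox5ap, which presents arachidonic acid to 5-lipoxygenase, had log2 levels of 12.46, 12.65, 12.63 and 12.60 in MI mice and 11.62, 11.16, 11.46 and 11.50 in sham-operated mice. The groups lay apart, and the MI mice stayed within a narrow band. The means were 12.58 ± 0.09 and 11.43 ± 0.20 (SD, n = 4 each), with a log2 difference of 1.15 (95% interval 0.74 to 1.56, SE 0.20, limma adjusted p = 0.000313, exact permutation p = 0.0286).

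Ltb4r1, the high-affinity receptor of leukotriene B4 on neutrophils and other leukocytes, had log2 levels of 10.76, 10.83, 10.93 and 10.87 in MI mice and 8.77, 7.89, 8.65 and 8.07 in sham-operated mice. The groups lay far apart, and the spread was smaller in MI mice (SD 0.07) than in sham-operated mice (SD 0.43), a difference that was not tested. The means were 10.85 and 8.34 (n = 4 each), with a log2 difference of 2.50 (95% interval 2.05 to 2.96, SE 0.22, limma adjusted p = 1.15e-08, exact permutation p = 0.0286). Its processed intensity lay at 1666 to 2276 in the MI group and at 219 to 504 in the sham group.

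The arrays stood in 2 rows of 1 slide with 2 mice of each group in each row. Within the first and the second row, the log2 difference was 2.78 and 2.56 for Ptgs2, 2.46 and 2.54 for Ltb4r1, and 1.17 and 1.14 for Alox5ap. The call of these 3 genes held under each of the 20 alternatives, with log2 differences from 1.17 to 3.01 for Ptgs2, from 1.96 to 2.64 for Ltb4r1 and from 1.03 to 1.21 for Alox5ap.

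Differences between 2 genes on the same array do not depend on the scale given to that array, though they depend on its additive constant, and 3 pairs of successive or parallel steps were examined after their values were seen, so that no test is given. With the mean of sham-operated mice placed at 0, the log2 difference of Ptgs2 minus Ptgs1 was 1.87, 3.41, 2.79 and 2.38 in MI mice and lay between -0.29 and 0.43 in sham-operated mice. Alox5ap minus Alox5 was 0.85, 1.24, 0.64 and 0.66 in MI mice and at most 0.39 in sham-operated mice. Ptgis minus Ptgds was 0.69, 0.93, 1.19 and 1.17 in MI mice and at most 0.30 in sham-operated mice. In each pair the groups lay apart, and on average Ptgs2 increased 6.12-fold relative to Ptgs1, Alox5ap 1.80-fold relative to Alox5, and Ptgis 1.99-fold relative to Ptgds. With the refitted vsn model these were 2.17-fold, 1.78-fold and 1.96-fold. The groups lay apart in each pair under each of 6 normalizations other than the main one, also chosen after the values were seen. These are not 6 separate checks, since an array's scale cancels in a difference between 2 genes. Percentile scaling and the spike-in shift gave equal values (log2 differences 2.947, 0.846 and 0.995). The authors' values share the main setting's scale and constants, and gave its 0.845 for Alox5ap minus Alox5 and 0.993 for Ptgis minus Ptgds. Since the pairs were picked with their values known, the separation is a description only.

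**Figure D3:**
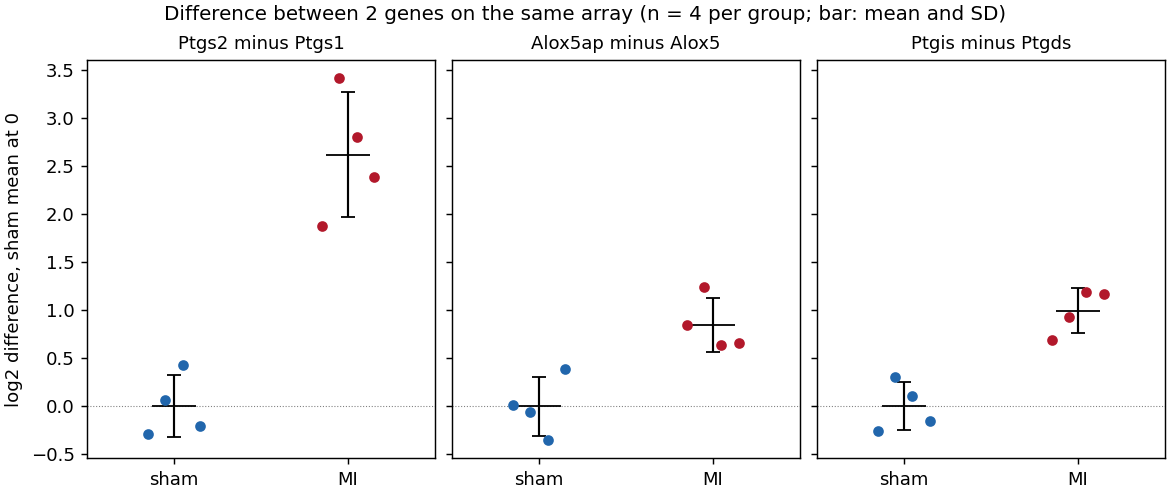
Difference in log2 level between 2 genes on the same array (vertical axis, mean of sham-operated mice at 0) for 3 pairs of genes. Points are mice, and lines and bars are the mean and SD (n = 4 per group); the MI mice lie at 1.87 or above for Ptgs2 minus Ptgs1, at 0.64 or above for Alox5ap minus Alox5 and at 0.69 or above for Ptgis minus Ptgds, and no sham-operated mouse exceeds 0.43.

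Of the lists of cell type markers, that of neutrophils held the most calls, and the others held few or none. Of 9 retained neutrophil markers, 7 were called higher, with a median log2 fold change of 2.82, and their summed linear level lay at 207580 to 319473 in the MI group and at 61742 to 80819 in the sham group. Of these, Ngp, a neutrophil granule protein, was well above background on the 4 MI arrays and on 0 sham arrays, so that it passed the detection filter through the MI group alone. It was at least 5.3-fold higher, against the lowest signals that were well above background. With Ngp at this bound the median was again 2.82, and without it 6 of 8 markers were called (median 2.92). S100a8, a calcium-binding protein abundant in neutrophils, rose by 3.02, while Csf3r (0.08) and Camp (0.64) did not pass the test. The summed level of a list mostly follows its brightest probes, here that of S100a9 (mean log2 level 17.13 in MI and 14.35 in sham-operated mice). Of 8 monocyte and macrophage markers, Ccr2 (1.15) and Cd14 (2.25) were called higher and 6 were not. Those 6 were Csf1r (-0.16), Adgre1 (-0.24), Cx3cr1 (-0.64), Lyz2 (0.15), Mrc1 (0.20) and Fcgr1 (0.67). The median of the list was 0.17, and its summed level was 16815 to 24089 in MI and 12635 to 19737 in sham-operated mice. The part of neutrophils and monocytes in the rise of Ptgs2, Alox5ap and Ltb4r1 was not tested.

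The markers of platelets, which rely on Ptgs1 for thromboxane synthesis, held no call among 8 markers (median 0.38), and Itga2b alone passed the adjusted threshold (0.94, limma adjusted p = 0.0378). The summed level of the list lay at 18978 to 29321 in the MI group and at 15537 to 17500 in the sham group. Most of this sum came from 1 bright probe, that of Pf4 (mean log2 level 14.47 in MI and 13.95 in sham-operated mice). Pf4 itself did not pass (0.53, limma adjusted p = 0.131), so that the sum does not describe the list as a whole. Of 6 mast cell markers, Kit (1.93) and Hdc (1.96) were called higher. The mast cell proteases Cma1 (-0.29), Mcpt4 (-0.47), Tpsb2 (-0.17) and Cpa3 (-0.45) were not called (list median -0.23). The summed level was 2916 to 5699 in MI and 1221 to 2570 in sham-operated mice. It mostly followed Hdc, the brightest probe by mean (log2 level 11.56 in MI and 9.60 in sham-operated mice), and does not describe the proteases. The endothelial list, of interest for Ptgis, had no call among 8 markers (median 0.20, summed level 29157 to 43805 in MI and 33414 to 41081 in sham-operated mice). Fibroblast markers gave no call among 7 (median -0.44), mesothelial markers none among 5 (-0.15), T cell markers none among 4 (0.43) and B cell markers none among 4 (0.70). At any fold, the lymphocyte markers Cd3d (0.90, limma adjusted p = 0.00598), Lck (0.65, limma adjusted p = 0.0429) and Cd79b (0.73, limma adjusted p = 0.0321) passed higher, with groups apart. The probe of Cd3d was dim (sham mean of 5.22). Cd3e, the brightest T cell marker, had -0.12 (limma adjusted p = 0.814) and Cd2 had 0.21 (limma adjusted p = 0.639). Neither passed, nor did the other 3 B cell markers. Of 6 smooth muscle markers Acta2 was called higher (1.46, list median 0.06).

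For Ptgs2, Ltb4r1 and Alox5ap, the genes with the nearest profile over the 8 mice were found among 15086 genes, by the root mean square difference of log2 values after each gene's sham mean was subtracted. They were Ccl2 (0.27), Ccl3 (0.28) and Lilrb4a (0.30) for Ptgs2, of which the first pair are chemokines of monocytes. For Ltb4r1 they were Asprv1 (0.19), Slc15a3 (0.19) and Inhba (0.21), and for Alox5ap Etv6 (0.10), Stfa3 (0.11) and Acap1 (0.11). This measure favours genes with a change of similar size, such as log2 fold changes of 2.64 for Ccl2 and 2.75 for Ccl3. It does not show that the genes share a cell type.

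Of 79 other eicosanoid genes in 7 lists, 61 had a retained probe. Of these, 6 were called higher and none lower, beside 3.07% and 0.405% of all retained probes. At any fold, 9 passed the adjusted threshold higher and 2 lower, beside 6.3% and 1.31% of all probes, and 50 did not pass. The 6 calls were 4 leukotriene and lipoxygenase enzymes and the receptors Fpr1 and Fpr2, and the difference between lists was not tested. The median log2 fold change of the 61 genes was 0.02, beside 0.12 for all retained probes and 0.075 over the brightest probe of each gene. With the refitted vsn model, and with normexp background correction, 3 of the genes were called higher (Fpr1, Fpr2 and Cyp4f18).

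**Figure D4:**
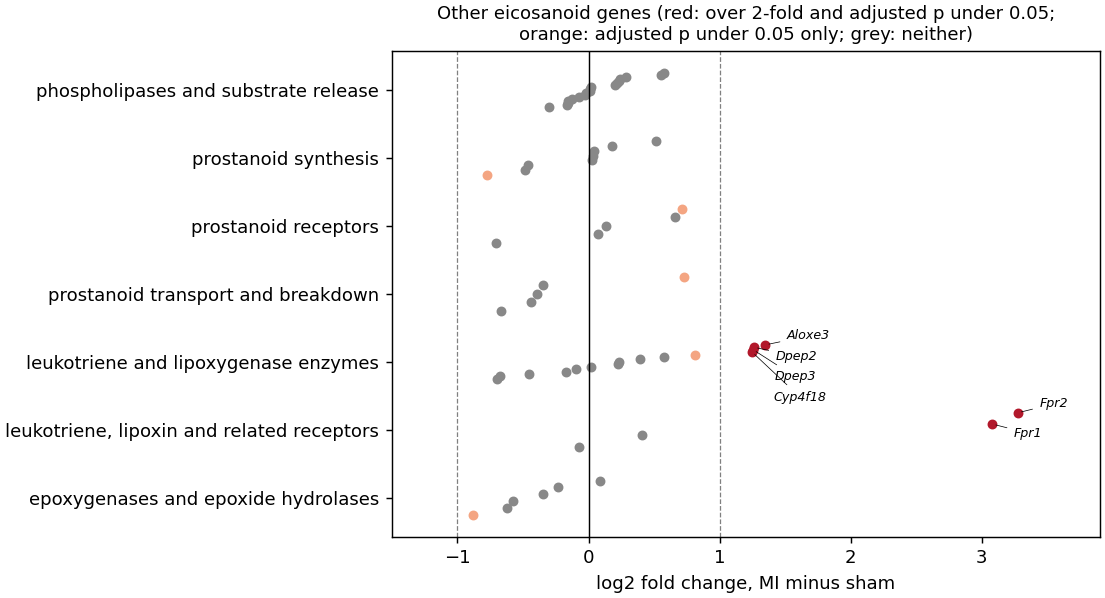
Log2 fold change, MI minus sham (horizontal axis), of the 61 retained eicosanoid genes beyond the 10 described, by list. Red points are called (over 2-fold and adjusted p under 0.05) and named, orange points passed the adjusted p only and grey points neither; the 6 named genes are 4 leukotriene and lipoxygenase enzymes and the receptors Fpr1 and Fpr2, between 1.25 and 3.28.

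In the list of leukotriene, lipoxin and related receptors, Fpr2 and Fpr1 were called higher. Fpr2, a receptor of formyl peptides and of lipoxin A4, had log2 levels of 9.95, 10.39, 10.52 and 9.84 in MI mice and 7.05, 6.71, 6.95 and 6.87 in sham-operated mice. The difference was 3.28 (SE 0.21, 9.69-fold, limma adjusted p = 4.53e-11). Fpr1, a formyl peptide receptor of neutrophils, rose by 3.08 (SE 0.22, 8.47-fold, limma adjusted p = 3.31e-10). With the refitted vsn model their log2 differences were 2.10 and 1.72, and both calls held. The leukotriene receptors in the same list did not pass. Ltb4r2, the low-affinity leukotriene B4 receptor, was well above background on 4 arrays only, of which 1 was a sham array. Its log2 difference was 0.41 (limma adjusted p = 0.492). It was negative with normexp and in the authors' values, which hold 1 sham-operated mouse for this probe. Cysltr1, a receptor of cysteinyl leukotrienes, had -0.07 (limma adjusted p = 0.908).

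Of 15 retained leukotriene and lipoxygenase enzymes, 4 were called higher (list median 0.23). Cyp4f18, which inactivates leukotriene B4 by oxidation, had log2 levels of 10.42, 10.80, 11.12 and 10.89 in MI mice and 9.70, 9.21, 9.97 and 9.34 in sham-operated mice. Its difference of 1.25 (SE 0.22, 2.38-fold, limma adjusted p = 0.000402) kept its call under all 20 alternatives. Aloxe3, a lipoxygenase known from the epidermis, rose by 1.35 (limma adjusted p = 0.000103) and Dpep2, a dipeptidase that cleaves leukotriene D4, by 1.26 (limma adjusted p = 0.000145). Both probes were dim (sham means of 5.34 and 5.74), and both calls were lost with the refitted vsn model (log2 differences 0.34 and 0.38) and with normexp (0.50 and 0.66).

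Dpep3, a related dipeptidase, rose by 1.26 (limma adjusted p = 0.00305) but was well above background on 1 of 4 sham arrays. Its call was lost in 5 of 19 alternatives, among them the authors' values (0.50) and leaving out sham mouse 3 (0.90). The authors' values leave out spots that were not above background, so that their 0.50 sets 4 MI mice against 1 sham-operated mouse. Alox15, which makes lipoxin precursors, was well above background on 2 of 4 sham arrays. Its groups overlapped, with a difference of 0.81 (limma adjusted p = 0.0492). It passed in 3 of 19 alternatives and was lost when any mouse but MI mouse 3 and sham mouse 1 was left out. Without sham mouse 1 it was a call (1.08, limma adjusted p = 0.00353), and with the refitted vsn model the difference was 0.13. Ggt5, which cleaves leukotriene C4, had -0.70 (limma adjusted p = 0.0617) and passed in 7 of 20 alternatives, among them leaving out MI mouse 1 (-0.82) or sham mouse 2 (-0.84).

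The prostanoid lists held no call. Of 8 retained synthesis genes, Prxl2b, a prostamide and prostaglandin F synthase, fell by 0.77 on the log2 scale (limma adjusted p = 0.023), with each MI mouse below each sham-operated mouse, and passed in 15 of 20 alternatives. It did not pass without MI mouse 3 (-0.69), sham mouse 3 (-0.70) or sham mouse 4 (-0.78). Akr1c18, a steroid dehydrogenase that also acts on prostaglandins, had 0.52 (adjusted p = 0.155), and the list median was 0.03.

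Of 5 retained prostanoid receptors, Ptger2, the EP2 receptor of prostaglandin E2, was well above background on 3 of 4 sham arrays. It rose by 0.72 (limma adjusted p = 0.0332). It passed in 7 of 19 alternatives and was lost when any mouse but MI mouse 1 and sham mouse 2 was left out. The difference was 0.098 with the refitted vsn model and 0.14 with normexp, and 1.05 with the spike-in shift alone, which made it a call (limma adjusted p = 0.0295). Ptgfr, the receptor of prostaglandin F2-alpha, had -0.70 (limma adjusted p = 0.12), and passed without MI mouse 4 (-0.85) or sham mouse 4 (-0.85). The list median was 0.13.

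Of 5 genes of prostanoid transport and breakdown, Slco2a1, the transporter that takes up prostaglandins, rose by 0.73 (limma adjusted p = 0.0483) and passed in 11 of 20 alternatives, though not without MI mouse 1, MI mouse 3, sham mouse 2 or sham mouse 4. Ptgr1, a prostaglandin reductase, had -0.67 (adjusted p = 0.0683) and passed without MI mouse 4 (-0.87). The list median was -0.39.

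Of 18 retained phospholipases and genes of substrate release, none passed at any fold (median 0.01). The largest differences were those of Acsl4, which activates arachidonic acid for its return to membranes (0.57, limma adjusted p = 0.111), and Pla2g7, the circulating phospholipase that degrades platelet-activating factor (0.55, limma adjusted p = 0.104). The mean over the probes of Pla2g7 gave 1.09 with an adjusted p of 0.00939, which made it a call in that alternative. Of 6 retained epoxygenases and epoxide hydrolases, Cyp2j9 fell by 0.88 on the log2 scale (limma adjusted p = 0.0156) and did not pass without MI mouse 2 (-0.71) or sham mouse 1 (-0.77), while without sham mouse 2 (-1.04) it fell by over 2-fold. Ephx1, an epoxide hydrolase, had -0.62 (adjusted p = 0.112), and the list median was -0.46.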

How the data were processed

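The intensities are, per the file headers, the processed output of Feature Extraction 11.0.1.1, with local background subtracted and no scaling between arrays. The authors also deposited log2 values, normalized with spike-in probes by limma and vsn. Setting these against the intensities gave each array's scale and additive constant (3.16 to 19.6) with no misfit beyond rounding, and both were applied to all spots. A vsn fit made anew gave constants of 166 to 256, which exceed the signal of dim probes, and served as an alternative. Control and outlier spots were left out, spots of a probe averaged, and probes with a signal well above background on at least 4 of 8 arrays kept (34038). The groups were compared in limma 3.58.1 (R 4.3.3) without covariates, and single values by exact two-sided permutation. A limma adjusted p is meant wherever no other test is named.

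Gene names came from RefSeq accessions (26582 probes paired). Beyond the 10 genes, the text names pathway genes that were called, the 2 largest of the rest in each list, and the 3 nearest profiles of each of 3 genes. Members and lists were chosen with earlier results of these data known. Scripts were tested on simulated data. Alternatives were 75th percentile scaling, a spike-in shift, the vsn refit, quantile normalization, normexp (offset 50), the authors' values, other detection filters, the mean over probes, significance analysis of microarrays with 70 permutations, blocks for replicate number and array row, and each mouse left out. Python 3.11.15 was used for the rest, with matplotlib 3.10.9 for figures.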

Additional observations from a re-analysis of the deposited data

Results flagged for a closer look

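Among 60 groups of 4 mice (30 genes), 5 held a mouse far from the other 3 of its group by Dixon's criterion at the 95% level, and chance gives about 1 in 20 groups. Ptgs2 in sham mouse 3 was at a log2 level of 6.70, with the other sham-operated mice from 5.52 to 5.67. Ptgis in MI mouse 2 was at 12.14, with the others from 12.64 to 12.72, on an array whose median level was also low. Ptger2, well above background on 3 of 4 sham arrays, was at 5.06 in sham mouse 2, with the others from 4.51 to 4.58. Ptgr1 in MI mouse 4 was at 7.86, with the others from 7.01 to 7.09. Alox15, well above background on 2 of 4 sham arrays, was at 5.69 in sham mouse 1, with the others from 4.59 to 4.65.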

How the results depend on the processing

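Of the 10 genes, 3 were called higher and none lower under each of the 20 alternatives. At any fold, 1 of the 10 genes (Ptgds) passed lower with 75th percentile scaling and 1 with quantile normalization. Of the other eicosanoid genes, 3 were called higher with the vsn refit and 3 with normexp, against 6, and 2 were called lower with 75th percentile scaling and 2 with quantile normalization, against 0, while leaving out single mice gave 0 to 1. The sign of Ptgs1 (0.06) turned with 75th percentile scaling (-0.067) and quantile normalization (-0.036), and leaving out single mice gave -0.031 to 0.19. Ptges (-0.11) was 0.19 as the mean over its probes, and between -0.20 and 0.032 with single mice left out. Ltb4r2 (0.41) was -0.02 with normexp and -0.56 in the authors' values, and Cysltr1 (-0.07) lay between -0.21 and 0.12 with single mice left out. The authors' values leave out spots that were not above background, so that the -0.56 of Ltb4r2 sets 3 MI mice against 1 sham-operated mouse. The cause of these changes was not tested. Over all probes, 1046 were called higher and 138 lower, against 320 and 13 with the vsn refit, 545 and 64 with normexp, 880 and 52 without a detection filter, 401 lower with 75th percentile scaling and 435 with quantile normalization, and 58 to 249 lower with single mice left out. Probes with an adjusted p under 0.05 numbered 2590, and 4895 with the replicate number as a block. That fit called 1028 probes higher and 127 lower and left the calls of the 10 genes as they were. With it Acsl4 (limma adjusted p = 0.0156), Pla2g7 (0.0281) and Ggt5 (0.00997) also passed at any fold. Deviations of mice with the same number correlated by 0.24, 0.29, 0.14 and 0.01. Among the MI mice, 2 correlated best with the sham-operated mouse of their own number. Whether the numbers pair the mice was not settled, and the main fit does not use them.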
